A study of Danio rerio with 6 samples.

Results

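Sarcomere and contractile genes were examined in RNA-sequencing of GFP-positive cells from zebrafish embryos. They were taken from the deposited gene table by symbol, as the rows whose symbol begins with 1 of 22 prefixes of myosin, actin, tropomyosin, troponin, titin and related genes, leaving out the mylip and mylk symbols. This gave 56 members among the 19722 genes listed. The study sorted cells from the gene-trap line Gt(endocard:egfp), which is Gt(SAGFF27C); Tg(4xUAS:egfp) and labels the endocardium, and from Tg(fli1a:egfp), which labels endothelium and blood cells. Each line gave 3 libraries of cells from embryos at the 15 somite stage. Parents of the gene-trap embryos were homozygous and those of the Tg(fli1a:egfp) embryos heterozygous, both crossed to wild-type fish, and embryos were pooled for each sort. From the gene-trap embryos only strongly fluorescent cells were used, since cardiomyocytes carry weak GFP in this line.

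The sarcomere is the repeating unit of striated muscle, in which thick filaments of myosin pull on thin filaments of actin. Calcium bound by the troponin complex shifts the position of tropomyosin on the thin filament and so permits contraction. Cardiac, slow and fast skeletal fibres build this unit from different paralogues, whereas smooth muscle and non-muscle cells, endothelial cells among them, use other myosins, tropomyosins and actinins in stress fibres and in the cell cortex. At mid-somitogenesis the slow fibres next to the notochord are the most advanced skeletal fibres of the zebrafish embryo, and the heart has not yet formed a tube.

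For each gene the table gives a single level, the authors' mean in log2 CPM (counts scaled to a common library size), pooled over the libraries of both lines. It has no spread and no number of replicates. It therefore does not show in which line, or in how many libraries, a gene was read. A difference between the lines was not analysed here and no test was made, because the other values of the table are the authors' own comparison. The mean is geometric, so a gene read in a part of the libraries has a lower mean than its average CPM. CPM is a share of counted reads that is not divided by transcript length. A level below thus states how many reads a gene drew, and does not rank genes by number of transcripts. In bulk libraries fewer cells of a type and less RNA per cell cannot be told apart.

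Markers of the labelled cell types were detected. All 11 endothelial markers, among them the endothelial receptor gene kdrl at 238.5 CPM and the junction gene cdh5 at 186 CPM, lay between 60.2 and 1194 CPM. Of the 4 genes listed here as endocardial, nfatc1 had 22.6 CPM and fn1a 751 CPM, and klf2a and hapln1a had 23.7 and 24.0 CPM. The paper describes nfatc1 and fn1a as known endocardial markers, and its text names hapln1b but neither hapln1a nor klf2a. Whether klf2a and hapln1a mark the endocardium at this stage was not tested, so their levels do not show that endocardial cells were read. Genes of other cells were read as well. The 9 red blood cell genes ranged from 2.59 to 335 CPM and the 4 myeloid genes from 2.52 to 935 CPM. The 3 epidermal genes ranged from 44.8 to 1633 CPM and the 4 neural genes from 2.87 to 89.2 CPM. The 5 genes of muscle regulators ranged from 2.41 to 34.9 CPM. Of these myod1, myog and myf5, which drive skeletal muscle fate, had 2.41, 2.81 and 3.99 CPM, and the Mef2 genes mef2ca and mef2d, which are also expressed outside muscle, had 19.2 and 34.9 CPM. The part of any of these cells in the levels of contractile genes was not tested.

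As classed here, the striated muscle members drew few reads, and the smooth muscle and non-muscle members drew most of those counted. Of the 56 members, 44 were put in the striated classes, and their median was 1.46 log2 CPM, against 2.58 for all genes listed. The 8 smooth muscle and non-muscle members had a median of 6.66. At or above 1 CPM were 39 members (69.6%), against 73.9% of all genes listed, so that the share of members was close to that of the table. Above the median of all genes lay 19 members, 12 of them among the 44 striated ones and 7 among the 8 smooth muscle and non-muscle ones. Summed over members, the striated classes took 505 CPM and the smooth muscle and non-muscle class 1521 CPM, 0.0528% and 0.159% of the sum over the table. Of the 1521 CPM, 939 came from tpm3 and tpm4a, which are also expressed in striated muscle. Which of the sums is larger therefore depends on the class given to tpm3 and tpm4a. Genes without a symbol are not in these sums. Among them are the actin genes actc1a, actc1b and actc1c at 102, 94.8 and 83.8 CPM, and the non-muscle gene myl12.1 at 820 CPM. The plot of cumulative shares shows the separation of both groups from the curve of all genes.

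**Figure D1:**
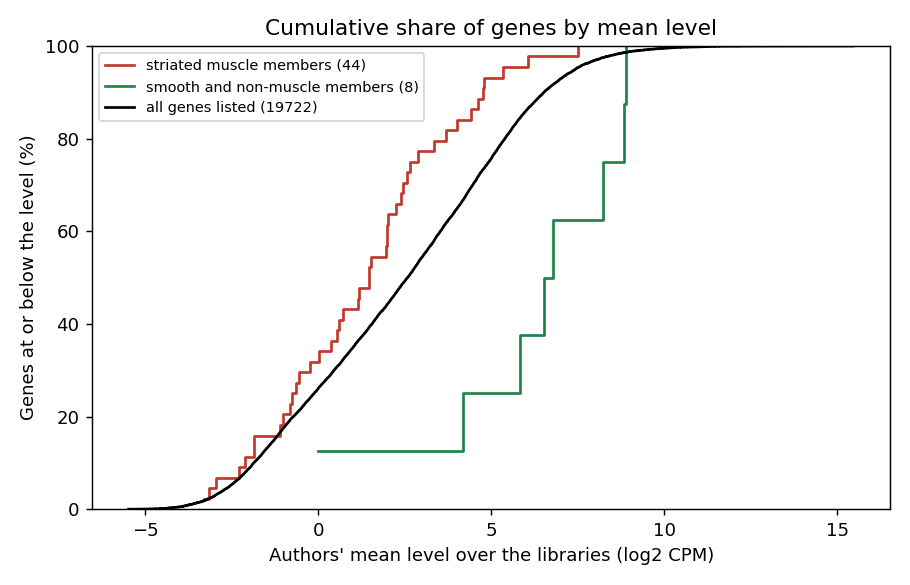
Cumulative share of genes (%) by the authors' mean level (log2 CPM, pooled over the libraries of both lines), for the striated muscle members, the smooth muscle and non-muscle members and all genes listed. The striated curve lies to the left of that of all genes at their median of 2.58, and the smooth muscle and non-muscle curve to the right of it, with medians of 1.46 and 6.66.

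The 11 members assigned to the heart had a median of 1.53 log2 CPM, under the 2.58 of all genes listed, and ranged from -3.16 to 4.43. Their sum was 58.0 CPM, and 160 CPM with the cardiac actin gene actc1a, which has no symbol in the table and was found by the list of gene names. Of the 18 genes on the cardiac list, 11 were found by symbol and 12 in all. No myosin heavy chain gene is among them, so the cardiac median and sums hold none. The highest member was ttn.2, a titin gene needed in the zebrafish heart, at 21.5 CPM, a level with 69.6% of all genes below it. Titin is the giant spring protein of the sarcomere. The neighbouring titin gene ttn.1 was put among the shared striated members. Whether the reads of ttn.2 come from the heart alone was not tested. The next were tnnt2a, the cardiac troponin T gene, at 16.1 CPM, and tnni1b, a troponin I gene, at 4.79 CPM. The actin-binding gene nexn, which encodes a Z-disc protein, had 4.00 CPM and the actinin gene actn2b 3.97 CPM.

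The light chain genes most used as markers of the zebrafish myocardium drew fewer reads than ttn.2 and tnnt2a, though CPM is not divided by transcript length. The regulatory light chain gene myl7 had 2.77 CPM and the essential light chain gene cmlc1 had 2.89 CPM, with 39.2% and 39.8% of all genes below them. The calsequestrin gene casq2, whose product stores calcium in cardiac sarcoplasmic reticulum, stood at 1.02 CPM. Below 1 CPM were tnnc1a, the cardiac troponin C gene, at 0.594 CPM, the light chain gene myl4 at 0.231 CPM and mybpc3, the cardiac myosin-binding protein C gene, at 0.112 CPM. The defining light chains of the myocardium were thus detected, with fewer reads than any of the 11 endothelial markers, and mybpc3 was near the bottom of the table, with 2.32% of genes below it.

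Slow skeletal members were few and uneven. Of the 13 genes on the slow list, 6 were found by symbol. The 6 members had a median of 3.29 log2 CPM, set by the gap between 3 members above 20 CPM and 3 below 4 CPM. The light chain gene myl10 had 66.5 CPM, the tropomyosin gene tpm2 had 40.6 CPM and the light chain gene myl13 had 24.6 CPM. Tropomyosin 2 is made in smooth muscle too, so tpm2 does not stand for slow fibres alone. The slow myosin heavy chain listed as smyhc2, which the list of gene names gives as MYH6, had 3.89 CPM. The slow heavy chain gene smyhc1, not a member for want of a symbol, had 32.4 CPM. The slow troponin C gene tnnc1b had 2.27 CPM. The slow myosin-binding protein C gene mybpc1 had 0.129 CPM, with 3.12% of all genes below it.

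Fast skeletal members made the largest class and had the lowest median of the 4 striated classes. The 18 members had a median of 0.63 log2 CPM, and 11 of them (61.1%) reached 1 CPM, against 73.9% of all genes listed. The highest were mybphb, a myosin-binding protein H gene, at 27.2 CPM and tnni2b.1, a fast troponin I gene, at 13.0 CPM. The actinin gene actn3b had 6.26 CPM, the fast troponin C gene tnnc2 had 5.90 CPM and the fast regulatory light chain gene mylpfa had 5.50 CPM. The muscle creatine kinase genes ckma and ckmb, which buffer ATP in the fibre, had 5.26 and 4.02 CPM. The fast myosin-binding protein C gene mybpc2b stood at 1.45 CPM.

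The 3 fast myosin heavy chains among the members were under 1 CPM. The genes myhb, myhz2 and myhz1.1 had 0.565, 0.491 and 0.274 CPM. The myhz1.1 of the table is named myhz1.1l by the list of gene names, which gives the symbol myhz1.1 to another identifier, at 0.252 CPM. In the gene order of the assembly GRCz12tu, myhz2, myhc4, myha, myhz1.3, myhz1.2 and myhz1.1 follow each other with no other protein-coding gene between them. Reads of such similar copies may have been split between them or dropped in counting, so the values of each copy are uncertain. The genes smyhc1, smyhc2 and smyhc3, the tnni2a copies, and ttn.1 and ttn.2 are also direct neighbours. Their values may be uncertain in the same way, but their sequences were not compared. The lowest fast member, tnni2a.2, had 0.101 CPM, the lowest level of all 56 members.

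Among the 9 striated members known from more than 1 kind of muscle, acta1a, a skeletal alpha-actin gene, had 181 CPM. It had 95.3% of all genes below it, and it was the only one of the 44 members classed as striated above 100 CPM. Alpha-actin genes are near identical in sequence to each other, so its reads may come in part from other actins. The chaperone gene unc45b, whose product folds the myosin head, had 27.7 CPM, ttn.1 had 10.1 CPM and the Z-disc gene ldb3a had 7.40 CPM. The nebulin gene neb, the ruler of the thin filament, had 2.21 CPM, and nebl had 1.52 CPM. The 3 myomesins, which link thick filaments in the M-band, had 0.638 CPM for myom2a, 0.463 CPM for myom1b and 0.273 CPM for myom1a.

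Smooth muscle and non-muscle members drew many more reads. The tropomyosin genes tpm3 and tpm4a had 478 and 461 CPM, with 98.6% of all genes below each. Both are broadly used in the actin cytoskeleton. Since tpm3 is also a tropomyosin gene of slow fibres and zebrafish tpm4a is also expressed in the heart, the 939 CPM that they took of the 1521 CPM of the class do not stand for non-muscle cells alone. The non-muscle actinin gene actn4, which crosslinks actin filaments, had 302 CPM, and its paralogue actn1 had 18.3 CPM. The non-muscle myosin heavy chain gene myh10 had 111 CPM, the light chain gene myl9b 92.6 CPM and the shared essential light chain gene myl6 57.0 CPM. The myl9b paralogue myl9a stood apart at 0.990 CPM, the only one of the 8 members under 1 CPM. The range of the other 7 members, from 18.3 to 478 CPM, overlapped that of the endothelial markers and of each other cell type list given above. Of these members actn1 and myl6 lay below every endothelial marker.

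**Figure D2:**
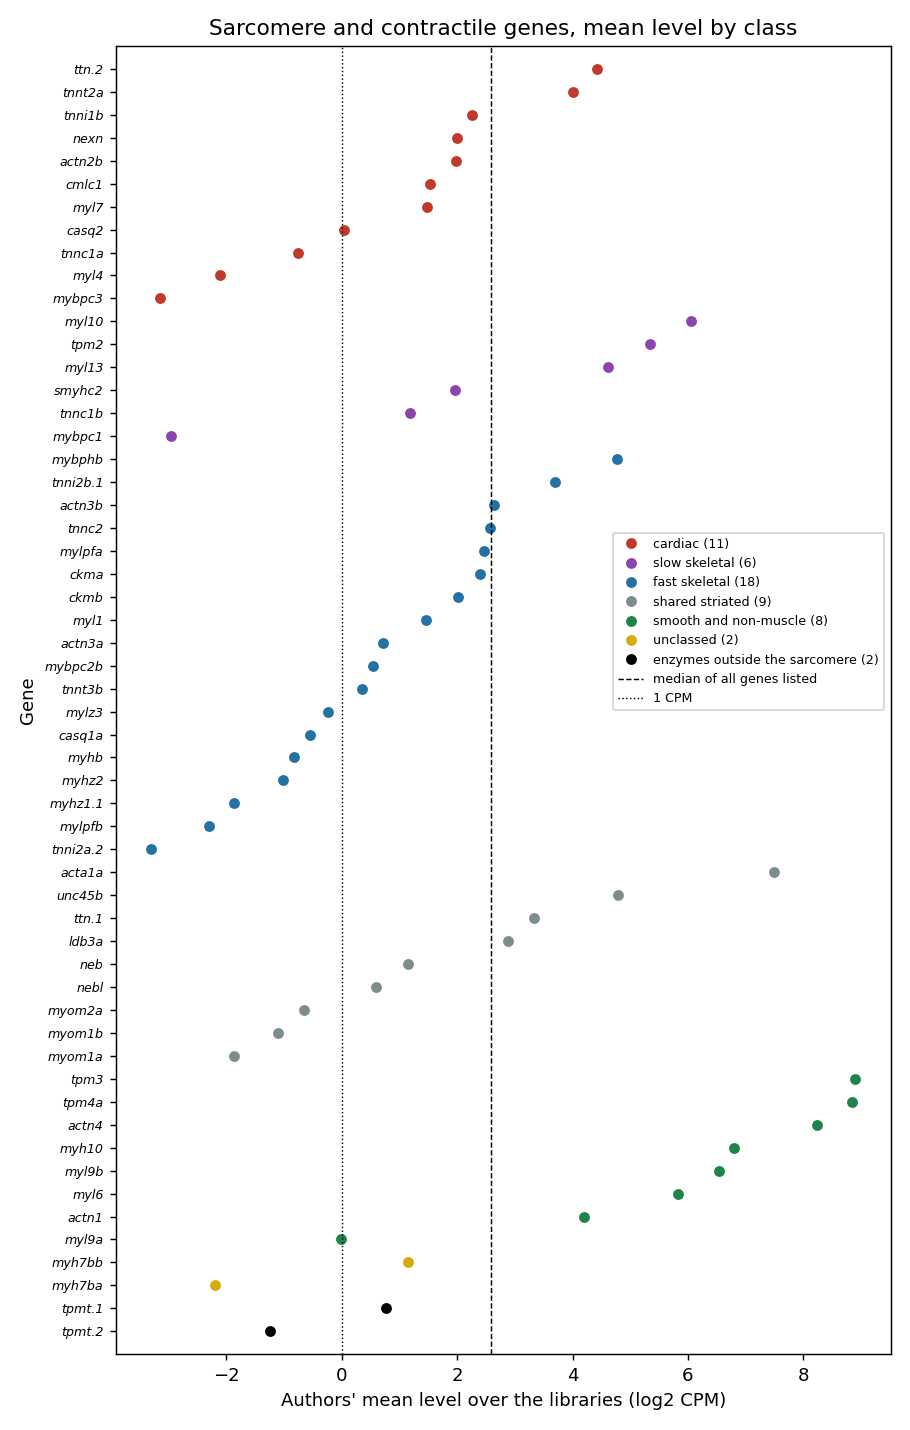
Mean level of each of the 56 members (log2 CPM, the authors' mean over the libraries of both lines), coloured by class, with the median of all genes listed (dashed) and 1 CPM (dotted). Points are single means with no error, and 7 of 8 smooth muscle and non-muscle members lie to the right of the dashed line, against 12 of 44 striated members.

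The remaining members belong to none of these classes. The myosin heavy chain genes myh7bb and myh7ba, whose fibre type was not assigned, had 2.23 and 0.217 CPM. The symbols tpmt.1 and tpmt.2 met the tpm prefix but encode a methyltransferase and no part of the sarcomere. They had 1.71 and 0.421 CPM.

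Sorted by part of the contractile machinery, the members did not share 1 level. The 7 Z-disc members and the 4 titins and nebulins were all at or above 1 CPM, as were the 3 tropomyosins. The share over all genes listed was 73.9%. Among those grouped with the Z-disc, actn4 and actn1 are of the smooth muscle and non-muscle class and took 321 of 344 CPM. Likewise tpm3 and tpm4a are of that class and took 939 of the 980 CPM of the tropomyosins. Of the 8 troponins 6 (75%) reached 1 CPM, and of the 12 myosin light chains 8 (66.7%), both near the share over all genes. Only 3 of the 7 myosin heavy chains reached 1 CPM, namely myh10, smyhc2 and myh7bb, and 0 of the 3 myomesins. These parts hold few genes, and a difference from all genes was not tested. None of the 7 heavy chains is of the cardiac class, and heavy chain genes without a symbol are given below. For troponin C the table held the cardiac, the slow and the fast gene, at 0.594 CPM for tnnc1a, 2.27 CPM for tnnc1b and 5.90 CPM for tnnc2. For troponin T, tnnt2a had 16.1 CPM and the fast gene tnnt3b 1.28 CPM. The troponin T genes tnnt2c, tnnt2d and tnnt2e, which are not members for want of a symbol, had 14.6, 1.54 and 0.129 CPM.

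**Figure D3:**
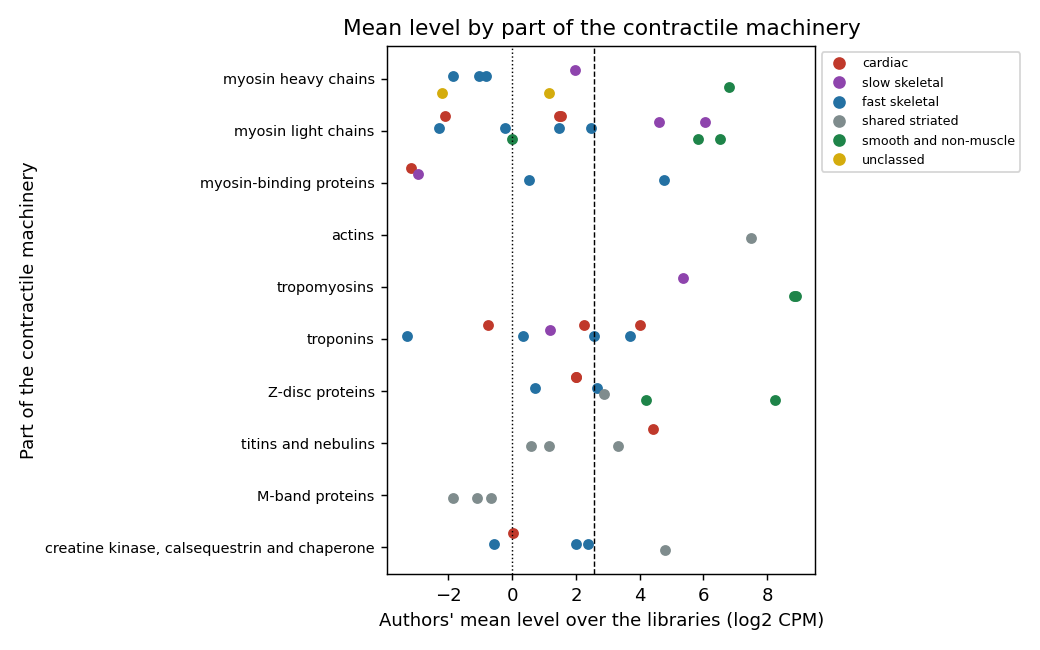
Mean level (log2 CPM, the authors' mean over the libraries of both lines) of the members by part of the contractile machinery, without tpmt.1 and tpmt.2, coloured by class, with the median of all genes listed (dashed) and 1 CPM (dotted). The M-band genes and the 3 fast myosin heavy chains lie under 1 CPM, and the highest points are the tropomyosin genes tpm3 and tpm4a at 8.90 and 8.85 log2 CPM.

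The rule reads the symbols of the table, and 5630 of its genes have none. A list of gene names gives 4591 of these a symbol, and 30 of them would meet the prefixes. Some are main genes of the sarcomere. The cardiac and skeletal actin genes actc1a and actc1b had 102 and 94.8 CPM, and actc1c had 83.8 CPM. The slow myosin heavy chain gene smyhc1 had 32.4 CPM, and the identifier that the list gives as smyhc2 had 8.13 CPM, whereas the list names the smyhc2 of the table MYH6. The non-muscle regulatory light chain gene myl12.1 had 820 CPM, more reads than any of the 56 members. The fast tropomyosin gene tpma had 12.5 CPM, and the smooth muscle actin gene acta2 had 1.37 CPM. The fast heavy chain copies myhz1.3, myhz1.2 and myhc4 had 0.570, 0.356 and 0.142 CPM, below 1 CPM like the listed ones, while myha had 2.41 CPM. Other identifiers carry human symbols in the list, which name no single fish gene, and all but CKMT1B were put in no class. Of heavy chains these were MYH9 at 92.6 and 46.4 CPM, MYH11 at 5.08 and 0.321 CPM, MYH6 at 3.89 CPM and MYH7 at 0.691 CPM. The others were MYL12A at 123 CPM, ACTA1 at 36.6 CPM and TPM4 at 20.8 CPM. The gene CKMT1B, put with the enzymes outside the sarcomere, had 1.35 CPM.

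Other muscle genes were given for comparison, from a list of 43 genes of calcium handling, sarcomere assembly and muscle metabolism. Of these 29 were found, with a median of -0.52 log2 CPM, and 13 (44.8%) reached 1 CPM, against 73.9% of all genes listed. Genes were matched by fish symbol. A gene known only by a human symbol therefore counts as not found, and the share covers matched genes only. The highest were atp2a2b at 228 CPM, a calcium pump gene of the endoplasmic reticulum that is used far beyond muscle, hsp90aa1.1 at 86.6 CPM, a chaperone gene that acts with unc45b in myosin folding, and atp2a2a at 15.7 CPM. The fast muscle calcium pump gene atp2a1 had 4.73 CPM, and the ryanodine receptor genes ryr1a, ryr3 and ryr1b had 0.567, 0.316 and 0.292 CPM. The methyltransferase genes smyd1a and smyd1b had 0.228 and 0.203 CPM.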

How the data were processed

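GFP-positive cells were sorted from embryos of both lines, and 3 libraries per line were amplified with Smart-seq2 from total RNA. Mapping to GRCz11 and counting were done by the authors with Rsubread, and the statistics with limma. The versions, the filter on low counts and the normalization are not given in the sources used here. The deposited table gives a mean of log2 CPM per gene, pooled by the authors over the libraries. Put back on the linear scale it sums to 956297 CPM and it ranges from -5.49 to 15.49 log2 CPM. The other 7 columns hold the authors' own comparison of the lines (log2 fold change, confidence limits, t-statistic, p-value, adjusted p-value and log-odds) and were not used. Values per library were not analysed here, so the depth of each library is unknown, no test was made, and no interval is given. Samples were grouped by their titles.

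Members were found by prefix and classed as cardiac, slow skeletal, fast skeletal, shared striated, or smooth and non-muscle from general knowledge of the genes. Found by symbol were 18 of the 32 genes on the fast list, 9 of 21 on the shared striated list and 8 of 18 on the smooth and non-muscle list. The members, classes and lists were chosen with earlier results of these data known. In each class the 5 members of highest level and the lowest are named, with myl7, cmlc1, tnnt2a, ttn.2, nexn, smyhc1, mybpc2b, actc1b and ckmb. Others named were chosen after their values were seen. Medians, counts at or above 1 CPM, sums of CPM and the percentage of genes below a level were computed with Python 3.11.15, numpy 2.4.6 and pandas 2.3.3, and figures with matplotlib 3.10.9. The prefix rule, the classes and the percentages were tested on simulated data. Of the identifiers, 18622 were in the list of gene names, and the gene list of the assembly GRCz12tu gave gene order only.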

Additional observations from a re-analysis of the deposited data

How the results depend on the processing

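No paired analysis was possible because the table holds no values per library. For the same reason no replicate was left out. Levels per coding length and promoter motifs were planned and not run, since no protein or promoter sequence was used here. Values were taken to have moved where they changed by at least 1.5 times. At 10 CPM in place of 1 CPM the counts were 17 for all members (39 at 1 CPM), 2 cardiac (8), 3 slow (5), 2 fast (11) and 3 shared striated (6). Of all 19722 genes listed, 8347 reached 10 CPM. At 0.1 CPM all 18 fast members were counted, and the share over all genes was not computed at that level. Members were also picked by the current symbols of all identifiers, which added 31 genes to the 56. Of the 31, 30 have no symbol in the table. Genes with a symbol in the table kept the class of that symbol. At or above 1 CPM were then 61 of 87 members (39 of 56 as reported) and 10 of 15 shared striated ones (6 of 9). Without tandem copies, taken as symbols beginning with smyhc, myhz or tnni2, the slow median was 4.62 log2 CPM (3.29 with them). Among slow members this left out only smyhc2, and the neighbours ttn.1 and ttn.2 were kept in their classes. The mean in place of the median gave 2.70 log2 CPM for slow and 1.85 for shared striated members. The sums under current symbols, a setting chosen after seeing the data, were 160 CPM for cardiac, 347 for shared striated and 2346 for smooth muscle and non-muscle members (58.0, 231 and 1521 as reported), and no median moved under it. Of the genes that the list named, 10 were left unclassed, all but actc1c under human symbols. Their 413 CPM are in none of these sums. Sums depended on single genes: without ttn.2 the cardiac sum was 36.5 CPM (58.0 with it), without myl10 the slow sum was 71.5 (138), without mybphb the fast sum was 50.2 (77.4), and without acta1a the shared striated sum was 50.2 (231). Under every setting run for it, the median or mean of the smooth muscle and non-muscle class lay between 6.17 and 6.66.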
